A study of Homo sapiens with 6 samples.

Results

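FOXF1, HAND1, HAND2, GATA4, GATA6, NKX2-5, PRRX1, TBX5, TBX18 and ISL1 are transcription factors that mark lateral plate and cardiac mesoderm, which lie beside the kidney lineage in the embryo and are off-target fates in a kidney differentiation. All 10 were found among the 60107 gene IDs of the counts table by matching their symbols to Ensembl IDs. The RNA came from H9, a human embryonic stem cell line, collected on day 9 while following a 10-day protocol that steers it toward nephron progenitors, from which the nephrons of the kidney arise. One group of 3 libraries was kept in complete medium with glutamine and the other group of 3 was deprived of glutamine from day 0 to day 9. Both groups went through the same protocol and no library of undifferentiated cells was used here. Nothing in the labels says that the 3 libraries of a group came from separate cultures, so p-values measure the spread between these libraries, which may be technical. All cells come from 1 cell line. The headings of the counts table speak of days 0 and 9 although every library is labelled day 9, and every direction below rests on the labels.

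Lateral plate mesoderm is the outer strip of mesoderm that forms the heart, the limb skeleton, the vessels and the linings of the body cavity. BMP signals favour lateral plate over intermediate mesoderm, from which the kidney arises, and hedgehog signals sustain FOXF1 in its inner layer. GATA4, GATA6, NKX2-5, HAND2 and TBX5 work together in heart precursors and switch on genes of heart muscle. TBX18, PRRX1, ISL1 and GATA6 are also used outside the heart: TBX18 marks the epicardium and the mesenchyme around the ureter, PRRX1 limb and other mesenchyme, ISL1 motor and sensory neurons, and GATA6 endoderm.

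The libraries held 78220507 to 84746566 counts, so 3 counts, the upper limit that a count of 0 allows, equal 0.0349 to 0.0384 CPM, the count scaled to library size with TMM factors. Such limits cover counting error only. Replicate 1 with glutamine stood apart from its group. Pearson's r of log2 CPM over genes (not independent replicates) was 0.9758 and 0.9762 between it and replicates 2 and 3 of that group, against 0.9908 to 0.9927 between it and the libraries without glutamine. The tests of the members, of their neighbours and of the gene lists are therefore given with and without that library. Of markers of the labelled cell type, 12 nephron progenitor genes were read, all of which had over 10 counts in at least 1 library. The same held for 16 of 18 heart muscle genes and 12 of 13 blood and vessel markers. This count therefore does not tell cell types apart. WT1 was at 225 to 390 CPM over the 6 libraries and EYA1 at 131 to 222 CPM. HOXD11, a patterning gene of the metanephric kidney, had 0 and 1 counts in replicates 2 and 3 with glutamine.

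Of the members, 3 carried nearly all of the signal: TBX18, GATA6 and PRRX1. The regulatory sequence upstream of the RefSeq start is shown for TBX18 and GATA6, the members at the highest length-scaled level, from RefSeq on GRCh38.p14, leaving out bases that GENCODE 29 places in an exon of the same gene. The PRRX1 window lay in such an exon and is not printed. Of the 10 members, 7 had a promoter in the RefSeq table. The TBX18 stretch is chr6:84764599-84764848 on the minus strand and ends at the RefSeq start, and the GATA6 stretch is chr18:22169339-22169442 on the plus strand and ends 146 bases before it. Capitals mark matches to any of 6 motifs searched on both strands: GATA, the E-box CANNTG that proteins of the HAND family can bind, the T-box letters GGTGTG, the CCAAT box, the GC box GGGCGG and the TATA box TATAAA.
TBX18: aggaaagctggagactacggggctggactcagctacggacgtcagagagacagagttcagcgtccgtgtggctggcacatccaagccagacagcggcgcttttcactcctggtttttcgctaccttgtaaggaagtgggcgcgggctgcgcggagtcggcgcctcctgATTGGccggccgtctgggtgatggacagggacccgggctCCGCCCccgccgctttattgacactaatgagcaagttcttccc
GATA6: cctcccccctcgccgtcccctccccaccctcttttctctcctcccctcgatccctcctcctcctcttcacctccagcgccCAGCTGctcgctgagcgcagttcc
The TBX18 stretch of 250 bases held 1 CCAAT box and 1 GC box, both on the opposite strand and so printed as ATTGG and CCGCCC. Of all 35116 promoter windows of that length, 32% held a CCAAT box and 42.6% a GC box. The GATA6 stretch of 104 bases held 1 E-box, as did 33.3% of all windows of that length. All windows of 104 bases were taken directly before the RefSeq start, so they lie nearer to it than the GATA6 stretch. No match to the GATA, T-box or TATA letters was found in either stretch, which says only that these letters are not in these windows. GATA is found in 21.7% of all windows of 104 bases and in 45.6% of those of 250 bases. For GGTGTG these shares were 6.39% and 14.2%, and for the TATA box 5.1% and 10.7%. The GATA6 stretch also lies inside GATA6-AS1, a gene on the opposite strand, with 34 of its bases in an exon of that gene.

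TBX18 (chromosome 6, 84687351 to 84764519, minus strand, GENCODE 29 on GRCh38) was the most abundant member. With glutamine it was at 54.4, 27.0 and 27.9 CPM in replicates 1, 2 and 3, and without glutamine at 43.9, 46.6 and 74.3 CPM. The groups overlapped: replicate 1 with glutamine lay between the second and the highest of the libraries without. The means were 36.5 ± 15.6 CPM with and 54.9 ± 16.8 CPM without (SD, n = 3). The fitted log2 difference was 0.59, with a standard error (SE) of 0.32 and an edgeR adjusted p of 0.25. The library that set the spread without glutamine was replicate 3. Leaving it out moved the log2 fold change to 0.31.

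GATA6 (chromosome 18, 22169443 to 22202528, plus strand), a zinc finger factor of heart, gut and yolk sac, was higher in every library without glutamine. It was at 7.71, 2.04 and 1.72 CPM with glutamine and at 13.2, 12.1 and 15.4 CPM without. The groups did not overlap, and replicate 1 with glutamine lay between the other libraries of its group and the libraries without. The means were 3.82 ± 3.37 and 13.6 ± 1.67 CPM (SD, n = 3). The log2 fold change of 1.82 (SE 0.52) did not pass the threshold of 0.05, at an edgeR adjusted p of 0.0879. DESeq2 gave an adjusted p of 0.0507.

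PRRX1 (chromosome 1, 170662728 to 170739419, plus strand), a homeodomain factor of limb bud and craniofacial mesenchyme, was also higher in every library without glutamine. It was at 15.4, 1.78 and 2.16 CPM with glutamine and at 23.2, 18.3 and 22.8 CPM without. The groups were separate, and replicate 1 with glutamine lay much nearer the libraries without. The means were 6.45 ± 7.76 and 21.4 ± 2.69 CPM (SD, n = 3), with an SD in the group with glutamine larger than its mean. Its log2 fold change of 1.73 had an SE of 0.75 (edgeR adjusted p 0.174).

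**Figure D1:**
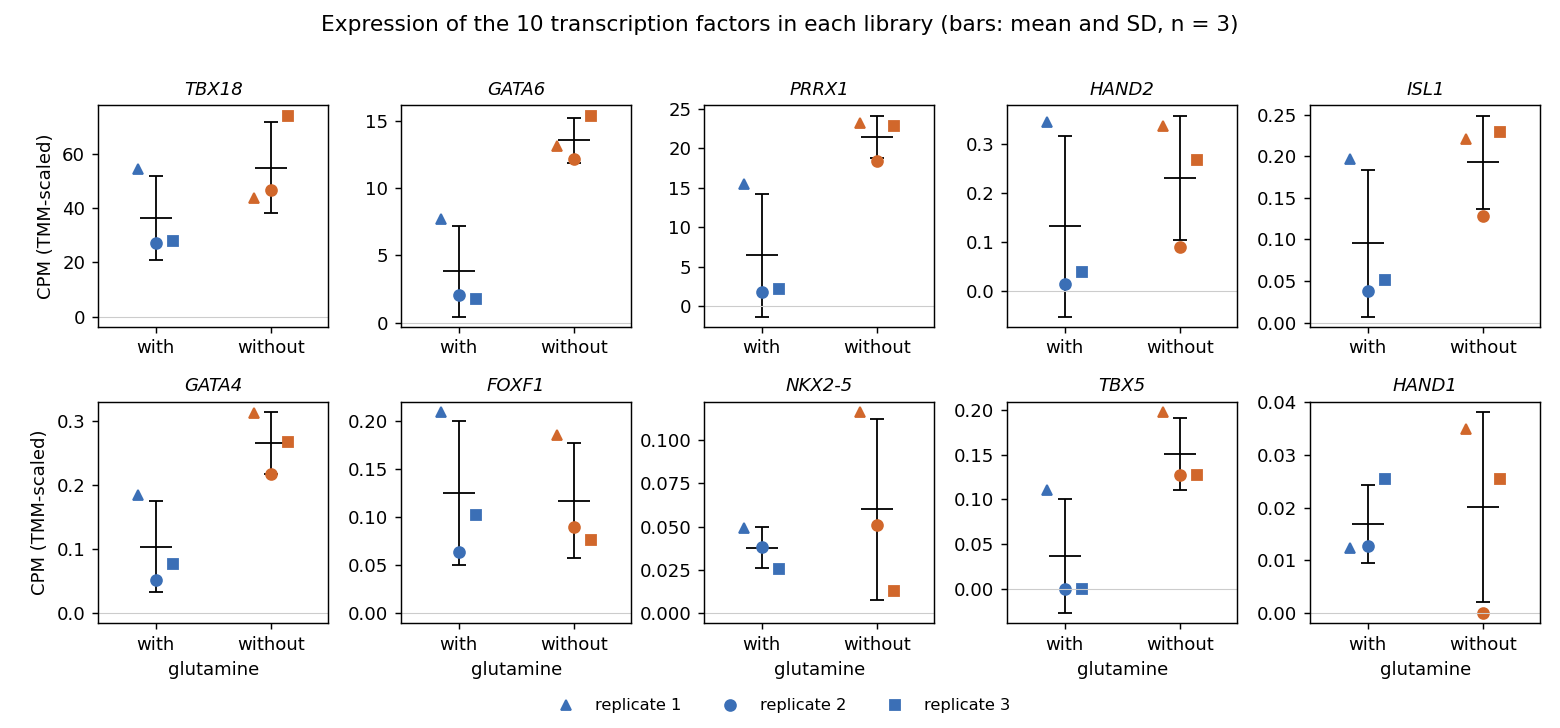
CPM of each of the 10 factors (vertical axes, one scale per gene) in the libraries with (blue) and without (orange) glutamine; symbols are replicates and black bars the mean and SD of 3 libraries. For GATA6, PRRX1, GATA4 and TBX5 the 3 libraries without glutamine lie above all 3 with it, and the triangle of replicate 1 with glutamine is above the other libraries of its group in all panels but HAND1.

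The other factors of heart precursors were near the limit of detection. GATA4, the close relative of GATA6, had 15, 4 and 6 counts with glutamine and 27, 17 and 21 without. These counts did not overlap, and correspond to 0.104 ± 0.071 and 0.266 ± 0.0485 CPM (SD, n = 3). GATA4 had a log2 fold change of 1.33, with an SE of 0.42 (edgeR adjusted p 0.102). Between the GATA factors, scaled for exon length, GATA6 was higher than GATA4 in all 6 libraries, with mean levels of 2.21 and 0.0417 CPM per kilobase.

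TBX5, which specifies the forelimb and parts of the heart, had 9, 0 and 0 counts with glutamine and 17, 10 and 10 without. It did not pass the filter and was not in the main test. With no filter and all 6 libraries, edgeR gave TBX5 1.97 in log2 (SE 0.82, edgeR adjusted p 0.231). DESeq2 gave 2.03 (SE 1.17) without an adjusted p. The 3 libraries without glutamine were above the 3 with it, but the difference rests on counts of this size. Replicates 2 and 3 with glutamine, at 0, were set at 3 counts per library, and the observed mean without glutamine was 3.94-fold that level. This value leaves out replicate 1 with glutamine and the counting error of the mean without.

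HAND2, a basic helix-loop-helix factor of heart and limb, had 28, 1 and 3 counts with glutamine and 29, 7 and 21 without. Replicate 1 with glutamine was at the level of the highest library without, so the groups overlapped. The fitted value for HAND2 was 0.79 in log2, with an SE of 0.87 (edgeR adjusted p 0.559). HAND1, the related factor of left ventricle and extraembryonic mesoderm, had 1, 1 and 2 counts with glutamine and 3, 0 and 2 without. No library was above 3 counts, so no fold change is given for HAND1.

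ISL1, a LIM homeodomain factor of heart precursors that add to the early heart tube and of motor neurons, had 16, 3 and 4 counts with glutamine and 19, 10 and 18 without. Its groups overlapped only through replicate 1 with glutamine. For ISL1 the fit gave 0.99 in log2, with an SE of 0.55 (edgeR adjusted p 0.264). NKX2-5, the homeodomain factor of early heart muscle, had 4, 3 and 2 counts with glutamine and 10, 4 and 1 without, with the lowest and the highest library in the same group. FOXF1, the forkhead factor of the inner lateral plate layer, had 17, 5 and 8 counts with glutamine and 16, 7 and 6 without. FOXF1 had its highest counts in replicate 1 of both groups, and its mean CPM were 0.125 ± 0.0755 with and 0.117 ± 0.0599 without (SD, n = 3). NKX2-5 and FOXF1 did not pass the filter. With no filter edgeR gave FOXF1 -0.07 in log2 (SE 0.53, edgeR adjusted p 0.969) and NKX2-5 0.69 (SE 0.71, edgeR adjusted p 0.581). No difference in either was detected, and counts this low limit what could be.

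Scaled for exon length and averaged over 6 libraries, the order of levels was TBX18 at 5.40, GATA6 at 2.21 and PRRX1 at 1.69 CPM per kilobase, followed by the other 7 at 0.0504 (HAND2) to 0.0106 (HAND1). TBX18 was the highest member in all 6 libraries, and GATA6 was above PRRX1 in all 6, although by little in replicate 1 with glutamine, at 1.96 and 1.87 CPM per kilobase. Among the 7 low members neighbours in the order did not differ beyond the spread over libraries. Of the 22272 genes kept by the filter and with a known length, 65.7% were below TBX18, 51.1% below GATA6 and 47.1% below PRRX1. For HAND2, ISL1 and GATA4 the corresponding shares were 2.57%, 2.53% and 1.75%. Bulk RNA does not tell few cells with a high level from many cells with a low level, nor fewer cells from less RNA per cell.

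**Figure D2:**
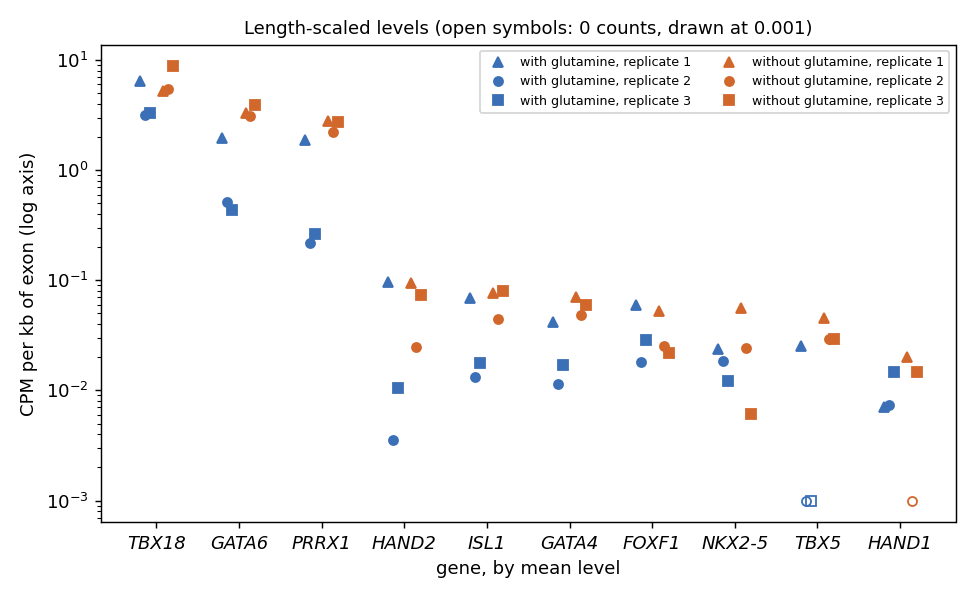
CPM per kilobase of merged exon length (log axis) of each factor in each library, ordered by the mean; open symbols are libraries with 0 counts, drawn at 0.001. TBX18, GATA6 and PRRX1 have means of 1.69 to 5.40, and the other 7 factors have means of at most 0.0504.

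The comparison without against with glutamine asked whether withholding glutamine goes with other levels of these factors. None of the 6 members that passed the filter had a Benjamini-Hochberg adjusted p under 0.05 in the edgeR quasi-likelihood test, when 0.00442% of all 22613 genes tested did. At an unadjusted p under 0.05 there were 2, GATA6 (0.00988) and GATA4 (0.0154), both higher, when 29.7% of all genes tested passed and 14.7% passed as higher and 15% as lower. DESeq2, run without the filter, called none of the 6 members to which it gave an adjusted p. It called 7.05% of the 43005 genes with a p-value, 3.8% as higher and 3.24% as lower. Among the 22613 genes that passed the edgeR filter it called 1634 as higher and 1378 as lower, a larger share. Limma-voom called none, with 0% of its genes called. At an unadjusted p under 0.05 DESeq2 had 3 members, GATA4, GATA6 and TBX18 (14.8% of its genes), and limma-voom had 3, GATA4, GATA6 and PRRX1 (31.2% of its genes). All 6 log2 fold changes were above 0, with a median of 1.16, beside 11343 of 22613 genes above 0 and a median of 0.0012 over all genes tested. The members that passed the filter are not all members, and a low gene passes it more easily when 1 group is high. Over all 10 members the groups did not overlap for 4, GATA4, GATA6, PRRX1 and TBX5, all higher without glutamine. Of all genes tested 34.2% had groups that did not overlap, 17.3% as higher and 16.9% as lower.

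Without replicate 1 with glutamine the picture of calls was another. That library was picked from these same data for standing apart from its group. The standard errors, adjusted p values and numbers of calls of this fit are therefore not to be read at face value. EdgeR then tested 7 members and called 7, all higher, when it called 41.3% of 23164 genes, 22.3% as higher and 19% as lower. PRRX1 had a log2 difference of 3.44 with an SE of 0.15 (edgeR adjusted p 3.19e-07), a 10.9-fold difference between the means of 3 and 2 libraries. GATA6 had 2.86 (SE 0.15, edgeR adjusted p 8.16e-07), or 7.24-fold. TBX18 had 1.002 (SE 0.20, edgeR adjusted p 0.003), or 2.00-fold. HAND2, ISL1 and GATA4 had 3.13, 2.08 and 2.04, with larger standard errors of 0.77, 0.49 and 0.42. The edgeR adjusted p was 0.00918 for HAND2, 0.00795 for ISL1 and 0.00358 for GATA4. TBX5 was called at an edgeR adjusted p of 0.00116. It is given only as 3.94-fold over the level of 3 counts, because both remaining libraries with glutamine were at 0. HAND2, ISL1, GATA4 and TBX5 had at most 6 counts in the 2 remaining libraries with glutamine and passed the filter through the libraries without, so for them the direction was set by the filter and the count of 7 is no measure of the members as a set. Over all 10 members 7 then had groups that did not overlap, all higher, when 63.4% of all genes tested in that fit did, 32.1% as higher, and 2 libraries against 3 separate more easily than 3 against 3. FOXF1, NKX2-5 and HAND1 did not pass the filter in this fit either.

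**Figure D3:**
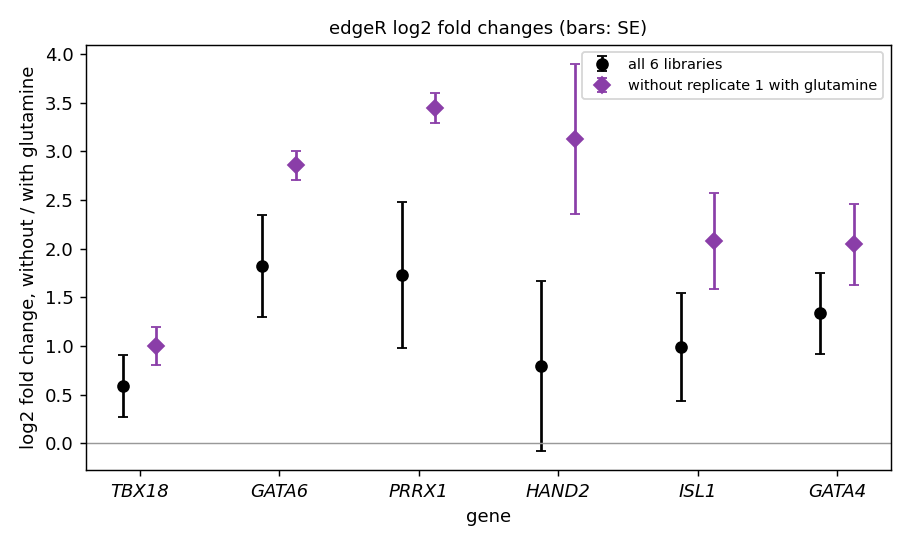
EdgeR log2 fold changes, without over with glutamine, of the 6 factors that passed the filter, with all 6 libraries (black circles) and without replicate 1 with glutamine (purple diamonds); bars are standard errors. All values are above 0, and those of PRRX1 move from 1.73 to 3.44 and those of HAND2 from 0.79 to 3.13.

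The place of replicate 1 with glutamine differed between members. On an axis of log2 CPM from the mean of replicates 2 and 3 with glutamine (0) to the mean without glutamine (1), that library was at 0.72 for GATA6, 0.73 for GATA4 and 0.86 for PRRX1. It was at 1.04 for ISL1 and 1.31 for HAND2, at or past the libraries without glutamine. Over the 3059 genes kept by the filter with an axis longer than 1, the median place was 0.80, with quartiles of 0.58 and 0.96. GATA6, GATA4 and PRRX1 lay within these quartiles, and ISL1 and HAND2, both with few counts, above them. TBX18, the most abundant member, had an axis no longer than 1 and so was given no place. For TBX18 replicate 1 with glutamine, at 54.4 CPM, also lay among the libraries without glutamine, which were at 43.9, 46.6 and 74.3 CPM.

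Transcripts next to the members were read from the same table, with a flank of 5 kb. GATA6-AS1 overlaps GATA6 on the opposite strand and was at 2.77, 1.22 and 0.827 CPM with glutamine and at 3.15, 3.29 and 3.60 CPM without. Its libraries had the same division as those of GATA6, and the fit gave 1.05 in log2 with an SE of 0.39 (edgeR adjusted p 0.132). HAND2-AS1 had 58, 1 and 6 counts with glutamine and 33, 11 and 15 without, with replicate 1 with glutamine the highest of all libraries (-0.17 in log2, SE 0.98, edgeR adjusted p 0.92). Without that library GATA6-AS1 was called at 1.71 in log2 (edgeR adjusted p 8.37e-05) and HAND2-AS1 at 2.40 (edgeR adjusted p 0.02), the latter against 1 and 6 counts. FENDRR, the noncoding neighbour of FOXF1, had at most 3 counts in any library, and TBX5-AS1 at most 5. The kit marks strand but the strand setting of the counting is not given in the sources used here. Reads of HAND2, GATA6 and TBX5 and of their overlapping antisense partners may therefore not be separable.

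The protein-coding genes with the pattern most like the 3 abundant members were ranked by Pearson's r of log2 CPM over the 6 libraries among 11265 genes with a mean of at least 5 CPM. The libraries fall into separate sets, so r is a measure of likeness only. For TBX18 they were AHNAK (0.999), CNPPD1 (0.997) and GRIP1 (0.995). AHNAK, a very large scaffold protein, was at 274, 155 and 159 CPM with glutamine and at 236, 245 and 356 CPM without, which repeats the high replicate 3 of TBX18. For GATA6 they were SYT1, CCDC30 and CDS1 (0.998, 0.998 and 0.997), and for PRRX1 OLFM3, DPYSL4 and FREM1 (0.999, 0.999 and 0.998). OLFM3 was at 13.1, 1.04 and 1.21 CPM with glutamine and at 21.0, 16.2 and 18.4 CPM without. FREM1, an extracellular matrix protein of basement membranes, had 118, 35.02 and 37.7 CPM with glutamine against 154, 146 and 159 CPM without.

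Other transcription factors of lateral plate and limb were mostly expressed in both groups. Of the 20 on the list, 18 passed the filter and edgeR called 0. Their median log2 fold change was 0.12, with 11 above 0 and 7 below, and the groups did not overlap for 5 as higher and 1 as lower. The nuclear receptors NR2F1 and NR2F2 and the homeodomain factor MEIS2 had the highest CPM. NR2F2, at 446 to 483 CPM with and 408 to 452 CPM without glutamine, differed by -0.10 in log2 with an SE of 0.07 (edgeR adjusted p 0.382). TBX2, a T-box repressor of heart and limb, followed the order of PRRX1: it was at 43.4, 2.77 and 2.98 CPM with glutamine and at 57.3, 43.5 and 45.4 CPM without (edgeR adjusted p 0.309). ALX4, a limb and craniofacial factor, had 9.44, 3.28 and 3.02 CPM with glutamine against 20.7, 12.6 and 15.3 CPM without (log2 fold change 1.62, SE 0.44, edgeR adjusted p 0.0829). DESeq2 called 3 of this list higher and 2 lower. EdgeR without replicate 1 with glutamine called 7 of 18 higher and 4 lower, with a median of 0.14. That fit called, among the genes named, TBX2 (4.09 in log2), ALX4 (2.37 in log2) and NR2F1 (0.32 in log2), at edgeR adjusted p values of 1.16e-07 to 0.0105, and did not call MEIS2 (adjusted p 0.0777) and NR2F2 (adjusted p 0.378).

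Among 16 other heart factors and cofactors 14 passed the filter and edgeR called 0, with a median log2 fold change of 0.40. TBX20 and NKX2-6 were at or under 3 counts in all libraries. No overlap was seen for 4 as higher and 3 as lower. SRF, a general partner of muscle factors, was at 73.3 to 79.8 CPM with and 78.3 to 81.3 CPM without glutamine. IRX4, a ventricular factor, was far lower: it had 19, 1 and 2 counts with glutamine and 80, 53 and 30 without (log2 fold change 2.83, SE 0.69, edgeR adjusted p 0.0746). MYOCD, a coactivator of SRF in heart and smooth muscle, had 1.97, 0.563 and 0.802 CPM with glutamine against 2.42, 3.50 and 4.95 CPM without (log2 fold change 1.69, SE 0.46, edgeR adjusted p 0.0829). HEY1, a Notch target of the heart, was at 38.4 to 89.9 CPM with and 69.7 to 99.2 CPM without glutamine (0.57 in log2, edgeR adjusted p 0.25). SMARCD3, a chromatin remodelling subunit of heart precursors, was at 17.7 to 24.7 CPM with and 26.1 to 27.2 CPM without glutamine (0.41 in log2, edgeR adjusted p 0.117). DESeq2 called 3 of the list higher and 1 lower, IRX4 (adjusted p 0.00415) and MYOCD (adjusted p 0.00132) among the higher. With replicate 1 with glutamine left out edgeR called 5 of 14 higher and 3 lower, with a median of 0.37. Of the genes named, that fit called MYOCD (2.40 in log2), HEY1 (1.02 in log2), SMARCD3 (0.59 in log2) and IRX4, at edgeR adjusted p values of 0.000241 to 0.000595, and did not call SRF (adjusted p 0.764). IRX4 had 1 and 2 counts there, so its fitted value is not given.

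Of the genes of heart muscle, many of them targets of the members, ACTC1 and NPPB placed replicate 1 with glutamine away from the libraries without. The 5 members with a place on the axis above had it at 0.72 or higher. That is common, since the median place over all genes with an axis longer than 1 was 0.80, with quartiles of 0.58 and 0.96. Of 18 on the list, 15 passed the filter and edgeR called 0, with a median log2 fold change of 0.31. Of these, 5 were higher and 3 lower without overlap. MYL2 of the ventricle had 0 counts in all 6 libraries, which allows up to 0.0384 CPM, and TNNT2, which defines cardiomyocytes, had 21 to 53 counts. ACTC1, cardiac actin, was at 29.3, 46.3 and 53.0 CPM with glutamine and at 80.4, 180 and 158 CPM without (log2 fold change 1.70, SE 0.33, edgeR adjusted p 0.0682). NPPB, a natriuretic peptide, had 2.00, 2.74 and 2.95 CPM with glutamine against 6.84, 12.6 and 11.2 CPM without (log2 fold change 1.99, SE 0.27, edgeR adjusted p 0.0679). For both genes replicate 1 with glutamine was the lowest library of all, at -0.54 and -0.28 on the axis on which GATA6 was at 0.72. PLN, which restrains the calcium pump of heart muscle, had 25, 5 and 2 counts with glutamine and 107, 172 and 178 without (log2 fold change 3.80, SE 0.56, edgeR adjusted p 0.0679). On the same axis PLN placed that library at 0.48, between the other libraries of both groups. TNNI1, the slow skeletal troponin I that the fetal heart also uses, was at 7.84 to 11.2 CPM with and 8.35 to 9.49 CPM without glutamine (-0.01 in log2, edgeR adjusted p 0.978), and its sign changed across settings. TTN, the giant spring protein of muscle, was at 59.9 to 82.2 CPM with and 45.1 to 53.2 CPM without (log2 fold change -0.54, SE 0.13, edgeR adjusted p 0.0737). DESeq2 called 4 of this list higher and 1 lower. Without replicate 1 with glutamine edgeR called 6 of 15 higher and 3 lower, with a median of 0.17. That fit called, among the genes named, ACTC1 (1.49 in log2), NPPB (1.84 in log2), PLN (5.36 in log2) and TTN (-0.55 in log2), at edgeR adjusted p values of 5.46e-05 to 0.0064, and did not call TNNI1 (adjusted p 0.208).

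Epicardial and mesothelial markers, relevant to TBX18, gave 2 higher and 2 lower without overlap, 0 called by edgeR and a median log2 fold change of 0.13 over the 10 of 11 genes that passed the filter. TBX18 itself is on this list. TCF21, an epicardial and kidney mesenchyme factor, was at 3.96, 0.640 and 0.395 CPM with glutamine and at 7.17, 9.37 and 10.6 CPM without (log2 fold change 2.43, SE 0.69, edgeR adjusted p 0.0864). LRRN4, a mesothelial membrane protein, had 26.0, 4.25 and 3.14 CPM with glutamine against 48.2, 31.6 and 30.1 CPM without (edgeR adjusted p 0.175). SEMA3D, a guidance ligand, had the opposite direction, at 95.5 to 156 CPM with and 66.6 to 77.5 CPM without (log2 fold change -0.83, SE 0.17, edgeR adjusted p 0.0695). ALDH1A2, which makes retinoic acid, was at 44.5 to 102 CPM with and 48.3 to 57.1 CPM without glutamine (-0.56 in log2, edgeR adjusted p 0.211), and WT1 had 0.37 in log2, edgeR adjusted p 0.247. UPK3B, a marker of mesothelium, had 5 to 7 counts. DESeq2 called 0 of this list higher and 2 lower. EdgeR without replicate 1 with glutamine called 4 of 10 higher and 3 lower, with a median of 0.50. Of the genes named, that fit called TCF21 (4.13 in log2), LRRN4 (3.31 in log2), SEMA3D (-1.001 in log2), ALDH1A2 (-0.82 in log2) and WT1 (0.66 in log2), at edgeR adjusted p values of 2.27e-06 to 0.000321.

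Blood and vessel markers, another lateral plate lineage, ran mostly the other way from the 6 members that passed the filter. Of 13 genes 12 passed the filter, 3 with a log2 fold change above 0 and 9 below, with a median of -1.07 and 0 called by edgeR. The 3 genes above 0 are not among those that the naming rule picks. Without overlap, 1 was higher and 6 were lower, when 17.3% of all genes tested were higher and 16.9% lower. DESeq2 called 2 higher and 6 lower. KDR, the VEGF receptor of vessel precursors, was at 24.3, 82.3 and 69.8 CPM with glutamine and at 13.5, 12.7 and 17.5 CPM without (log2 fold change -2.01, SE 0.42, edgeR adjusted p 0.0695, DESeq2 adjusted p 0.00313). LMO2 had 1.36, 7.20 and 8.56 CPM with glutamine against 0.779, 1.48 and 1.12 CPM without, and TAL1 at 0.407, 3.11 and 2.10 CPM with and at 0.174, 0.498 and 0.293 CPM without. For both of these blood factors replicate 1 with glutamine lay among the libraries without. TIE1, a receptor of vessel cells, was at 5.74 to 6.45 CPM with and 4.21 to 5.36 CPM without glutamine (-0.38 in log2, edgeR adjusted p 0.126). The summed level of the list was 41.5 to 111 CPM with and 28.8 to 36.3 CPM without. With replicate 1 with glutamine left out edgeR called 1 of 12 higher and 8 lower, with a median of -1.17. Of all genes it then called 22.3% as higher and 19% as lower. That fit called, among the genes named, KDR (-2.38 in log2), LMO2 (-2.81 in log2), TAL1 (-3.03 in log2) and TIE1 (-0.39 in log2), at edgeR adjusted p values of 1.04e-06 to 0.0409.

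BMP and hedgehog genes, which act upstream of the members, had a median log2 fold change of 0.03 over the 25 of 28 that passed the filter, with 0 called by edgeR. Without overlap, 8 were higher and 3 lower. GLI3, a hedgehog effector that mostly represses, was at 222, 451 and 422 CPM with glutamine and at 200, 169 and 189 CPM without (log2 fold change -0.97, SE 0.25, edgeR adjusted p 0.0781). GREM1, a secreted BMP inhibitor, had 112, 342 and 357 CPM with glutamine against 137, 97.2 and 103 CPM without (log2 fold change -1.27, SE 0.40, edgeR adjusted p 0.103). GLI1, a hedgehog target, was low, at 0.481, 0.166 and 0.178 CPM with and 0.698, 0.830 and 0.726 CPM without (log2 fold change 1.43, SE 0.38, edgeR adjusted p 0.0806). ID3, a BMP target, was at 239 to 242 CPM with and 244 to 303 CPM without (log2 fold change 0.20, SE 0.09, edgeR adjusted p 0.187). DESeq2 called 5 of the list higher and 3 lower. Without replicate 1 with glutamine edgeR called 9 of 26 higher and 9 lower, with a median of 0.08. Of the genes named, that fit called GLI1 (2.11 in log2), GLI3 (-1.22 in log2) and GREM1 (-1.63 in log2), at edgeR adjusted p values of 3.41e-06 to 0.00032, and did not call ID3 (adjusted p 0.107).

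Markers of other cell types that use a member were read in the same way. Of 12 endoderm markers, relevant to GATA6 and GATA4, 6 passed the filter, with a median log2 fold change of 0.23 and 0 called by edgeR. AFP, TTR and APOA2 were at or under 3 counts in all libraries, and FOXA2, a factor used in endoderm but not only there, had 0 counts with glutamine and 3 to 4 without. The summed endoderm level was 4.15 to 5.29 CPM with and 4.07 to 4.91 CPM without glutamine. HHEX was at 0.283 to 1.49 CPM with and 0.151 to 0.242 CPM without, and APOA1 at 0.781 to 2.98 CPM with and 1.96 to 2.36 CPM without. The groups did not overlap for 1 as higher and 2 as lower. FOXA3 had a log2 fold change near 0 that took either sign across scalings. DESeq2 called 1 of this list higher and 2 lower. EdgeR without replicate 1 with glutamine called 3 of 7 higher and 2 lower, with a median of 0.07. That fit called, among the genes named, APOA1 (1.29 in log2) and HHEX (-2.64 in log2), at edgeR adjusted p values of 7.92e-05 to 0.000536, and did not call FOXA3 (adjusted p 0.953).

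Of 11 amnion and trophoblast markers, relevant to HAND1, ISL1 and GATA6, 6 passed the filter, with a median log2 fold change of 0.33, 0 called by edgeR and 1 without overlap, GATA3, as higher. Their summed level was 28.7 to 167 CPM with and 165 to 247 CPM without, the larger part of it in every library IGFBP3, a growth factor binding protein that many mesenchymal cells also make. IGFBP3 had 145, 17.2 and 15.7 CPM with glutamine against 142, 170 and 233 CPM without, so replicate 1 with glutamine lay with the libraries without, as it did for HAND2 and ISL1. GABRP, WNT6 and CGA were at or under 3 counts in all libraries. GATA3 was at 2.56 to 6.10 CPM with and 7.70 to 8.41 CPM without (edgeR adjusted p 0.0911). TFAP2B was at 5.44 to 6.77 CPM with and 1.67 to 6.07 CPM without glutamine (-0.89 in log2, edgeR adjusted p 0.244), and TFAP2C at 2.02 to 3.81 CPM with and 0.815 to 2.12 CPM without glutamine (-1.31 in log2, edgeR adjusted p 0.101). DESeq2 called 1 of this list higher and 1 lower. With replicate 1 with glutamine left out edgeR called 3 of 6 higher and 1 lower, with a median of 0.77. Of the genes named, that fit called GATA3 (1.49 in log2), IGFBP3 (3.47 in log2) and TFAP2C (-1.54 in log2), at edgeR adjusted p values of 1.38e-06 to 0.00321, and did not call TFAP2B (adjusted p 0.187). The part of these genes in the members' values was not tested.

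Of 13 motor and sensory neuron markers, relevant to ISL1, 9 passed the filter, with a median log2 fold change of 0.18 and 0 called by edgeR. The groups did not overlap for 4 as higher and 2 as lower. LHX3, the motor neuron partner of ISL1, was at or under 1 count in all libraries, and MNX1 had 2 to 8. POU4F1, a sensory neuron factor that often goes with ISL1, was at 1.08, 12.3 and 16.4 CPM with glutamine and at 0.291, 0.217 and 0.166 CPM without, the opposite of ISL1 (log2 fold change -5.45, SE 1.09, edgeR adjusted p 0.0689). SLC18A3, the acetylcholine transporter of synaptic vesicles, was at 0.0256 to 0.345 CPM with and 0.546 to 0.802 CPM without glutamine (2.22 in log2, edgeR adjusted p 0.0829). LHX4 was at 3.59 to 5.004 CPM with and 4.93 to 6.02 CPM without glutamine (0.37 in log2, edgeR adjusted p 0.184), and STMN2, a neuronal microtubule regulator, at 1.54 to 6.34 CPM with and 0.930 to 1.98 CPM without glutamine (-1.71 in log2, edgeR adjusted p 0.102). The summed level was 10.8 to 29.8 CPM with and 10.3 to 12.4 CPM without. DESeq2 called 3 of this list higher and 2 lower. Without replicate 1 with glutamine edgeR called 4 of 9 higher and 3 lower, with a median of 0.20. That fit called, among the genes named, POU4F1 (-5.98 in log2), LHX4 (0.53 in log2), STMN2 (-2.13 in log2) and SLC18A3 (against 2 and 4 counts), at edgeR adjusted p values of 1.02e-07 to 0.00926. The 12 nephron progenitor markers had a median log2 fold change of 0.34, with 0 called by edgeR, 3 without overlap as higher and 2 as lower. PAX8, of the intermediate mesoderm, was at 649, 194 and 167 CPM with glutamine and at 848, 680 and 587 CPM without (edgeR adjusted p 0.2). Its groups overlapped, since replicate 1 with glutamine was above replicate 3 without, but like PRRX1 it was lowest in replicates 2 and 3 with glutamine. LHX1, of the intermediate mesoderm and early nephron, was at 4.51 to 71.8 CPM with and 89.5 to 137 CPM without glutamine (2.07 in log2, edgeR adjusted p 0.217). HOXD11 was at 0 to 0.542 CPM with and 3.22 to 6.05 CPM without glutamine (4.67 in log2, edgeR adjusted p 0.0679), and EYA1 had -0.48 in log2, edgeR adjusted p 0.0796. DESeq2 called 1 of this list higher and 2 lower. EdgeR without replicate 1 with glutamine called 7 of 12 higher and 5 lower, with a median of 0.56. Of the genes named, that fit called LHX1 (4.63 in log2), PAX8 (1.97 in log2), WT1 (0.66 in log2), EYA1 (-0.59 in log2) and HOXD11, at edgeR adjusted p values of 1.93e-07 to 0.000519. HOXD11 had 0 and 1 counts there, so its fitted value is not given. The summed level of the list was 876 to 1659 CPM with and 1557 to 2076 CPM without, and its part in the members' values was not tested.

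**Figure D4:**
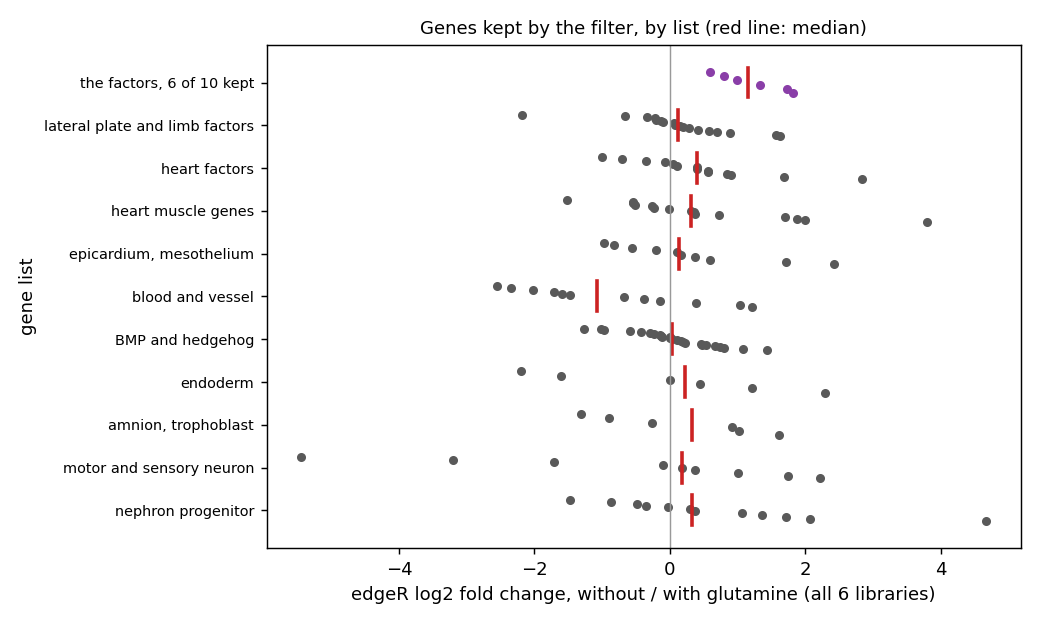
EdgeR log2 fold changes with all 6 libraries (horizontal axis) for each gene that passed the filter, by list; the red line is the list's median. The 6 factors that passed the filter lie between 0.59 and 1.82, and a low gene passes it more easily when 1 group is high. The blood and vessel list has a median of -1.07, with 3 genes above 0 and 9 below. The other lists also have genes on both sides of 0.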

How the data were processed

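The authors deposited raw counts per Ensembl gene, 1 column per library, and a table of scaled counts that was not used here. Per the labels' protocols, stranded mRNA libraries were read as single 50-nt ends. Per the submitters' processing notes the tools named are cutadapt, Trim Galore, FastQC, STAR 2.5.2b and DESeq2, and the build GRCh38. The counting program, annotation release and strand setting are not given in the sources used here. Symbols, exon lengths and positions came from GENCODE 29 (56531 of 60107 IDs matched, and the others held 0.148% of the counts). The main test was the quasi-likelihood test of edgeR 4.0.16 in R 4.3.3 (legacy = FALSE) after filterByExpr and TMM scaling, without a replicate block, with Benjamini-Hochberg adjustment over all 22613 genes kept and a threshold of 0.05. A standard error is the absolute log2 fold change divided by the square root of F. DESeq2 1.42.0 and limma 3.58.1 (voom) gave alternatives, as did other scalings, filters, edgeR settings, a replicate block and leaving out each library. Log2 CPM used a prior count of 2. CPM per kilobase used merged exon lengths. The tests were also run on simulated counts with 200 genes changed. Each gene was drawn on its own there, so no simulated library stood apart over many genes as replicate 1 with glutamine did.

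The members, the 10 other lists (154 entries) and the settings were chosen with earlier results of these data known. Besides all members, the rule names from each list the 3 genes with the highest CPM and the 2 with the largest change among genes whose higher group averages 50 counts or more. For likeness it names 3 genes for each of the 3 most abundant members. Other list genes named, neighbours of the members and motifs were chosen after values were seen.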

Additional observations from a re-analysis of the deposited data

How the results depend on the processing

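EdgeR called 1 gene, but 0 genes with its legacy setting, library size only, limma-voom, upper quartile scaling and the replicate block, 2 with no filter and 3030 under DESeq2. The cause was not tested. Leaving out 1 library gave 0 to 9573 called genes, 9573 without replicate 1 with glutamine. For the members the count of calls was 0 under all 10 alternatives that kept all libraries and 0 to 7 when 1 library was left out, 7 again without replicate 1 with glutamine. The number of members whose groups did not overlap was 4 under 3 other scalings and 4 to 7 with 1 library left out, 7 without replicate 1 with glutamine, where 63.4% of all genes tested did not overlap. Each of the 6 members tested kept its direction in 96 of 96 values, and 6 values, 1 for each member, became called without that library. All settings refit the same libraries, so the 96 values are not independent checks of direction. These 6 are also the members that passed the filter, which a low gene passes more easily when 1 group is high. With no filter, FOXF1 was at -0.07 in log2 and the median over the members was 0.90 in place of 1.16. Limma-voom gave HAND2 a log2 fold change of 1.63 in place of 0.79. Leaving out 1 library moved it from 0.26 to 3.13 for HAND2 and from 1.28 to 3.44 for PRRX1. For the 43 other named genes 13 of 687 values reversed, all in genes near 0. TNNI1 (-0.0080) was 0.0071 under limma-voom, 0.0062 with the replicate block and -0.11 to 0.17 with 1 library left out. FOXA3 (0.00046) was -0.0023 under DESeq2 size factors, -0.0014 under the legacy setting, -0.029 under limma-voom, -0.016 with the replicate block, -0.044 under upper quartile scaling and -0.12 to 0.18 with 1 library left out. The median of the heart muscle list was -0.0011 with no filter. With 1 library left out the list medians ran from -0.15 to 0.50 for epicardium, from -0.032 to 0.35 for endoderm and from -0.0026 to 0.77 for amnion and trophoblast. Same-numbered libraries did not deviate together, since the deviations of replicates 1, 2 and 3 from their group means correlated over genes at -0.02, 0.00 and 0.03, and no pairing was used. The largest shift of the all-gene median under any alternative was -0.044. Genes with few counts, HAND1, NKX2-5, FOXF1 and TBX5 among them, are limited by depth.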
